A study of Mus musculus with 12 samples.

Results

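Calm2, Calm3 and Tfpt were examined as R-loop loci: 3 genes of 21887 protein-coding genes in the RefSeq table used. They were chosen by name, as calmodulin genes and a locus used as an R-loop control, and not by their peaks. Earlier results of these data were known when the choice was made. In an R-loop, a transcript stays paired with its DNA template and leaves the complementary DNA strand single. Per the labels, R-loops were mapped with S9.6, an antibody against RNA-DNA hybrids, in a series on editing of the genome with adeno-associated virus vectors. The 12 libraries fall into 6 groups of 2: immunoprecipitate, immunoprecipitate treated with RNase H1 (an enzyme that degrades the RNA of a hybrid), and input DNA, each from HEPA1-6 and from liver. HEPA1-6 is a mouse hepatoma line. The liver came from mice labelled C57/Bl6, whose age and sex are not given, and every group is labelled wild type, hepatocyte and without treatment. Immunoprecipitate libraries were amplified by 10 PCR cycles and inputs by 4, from DNA sonicated to about 300 bp.

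One peak list was used per source, with 28717 peaks for HEPA1-6 and 14908 for liver. Peak names call each list a merged immunoprecipitate against input, whereas GEO files each list under replicate 1 of its source, so whether a score rests on 1 or 2 libraries is not settled. Values of single libraries, and of libraries treated with RNase H1, were not analysed here. No difference between the lists has a replicate check and none was tested, the depth is unknown, and an interval below the authors' threshold is not listed. The material is bulk DNA, in which a hybrid in fewer cells and less hybrid per cell cannot be told apart. The second list is called liver-labelled here, after the label of its libraries. In it, 9 of 12 cell cycle genes held a peak (95% Wilson interval 46.8 to 91.1%). This compares with 1 of 12 hepatocyte markers (1.49 to 35.4%) and 1 of 12 markers of other liver cells. In HEPA1-6 these counts were 11, 2 and 1. The shares over all protein-coding genes were 42.0% for HEPA1-6 and 29.7% for the liver-labelled list. Alb, the albumin gene, was the hepatocyte marker with peaks in both lists (top scores 670 and 54), Apob had a HEPA1-6 peak alone, and the other 10, among them Ttr, Apoa1 and Cps1, had none. What these counts say about the cells sampled, or have to do with the values below, was not tested.

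Calmodulin is a small calcium sensor that wraps around its target proteins once it has bound calcium. In mammals several separate genes, among them Calm2 and Calm3, code for the same protein, so that they differ in their promoters and untranslated sequences rather than in their product. Tfpt codes for a subunit of INO80, a complex that moves nucleosomes and acts in transcription and repair. Calm3 and Tfpt are often assayed as positive loci in R-loop immunoprecipitation, mostly in human cells.

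The results turn on the gene starts, and the bases there are therefore shown first. RefSeq promoter windows (GRCm38.p6, 250 bases before to 50 after the start) were found for 2 of the 3 genes, Calm3 and Tfpt. Calm3 lies on the minus strand of chromosome 7, and the 250 bases before its start (chr7:16924033-16924282) lay inside a peak in both lists. Tfpt, on the same strand of the same chromosome, starts head to head with Prpf31, which codes for a splicing factor. The 55 bases between both starts (chr7:3629930-3629984) lay inside no peak of either list. Both sequences are written 5′ to 3′ on the minus strand, with each CG dinucleotide in capitals.
Calm3, before the start: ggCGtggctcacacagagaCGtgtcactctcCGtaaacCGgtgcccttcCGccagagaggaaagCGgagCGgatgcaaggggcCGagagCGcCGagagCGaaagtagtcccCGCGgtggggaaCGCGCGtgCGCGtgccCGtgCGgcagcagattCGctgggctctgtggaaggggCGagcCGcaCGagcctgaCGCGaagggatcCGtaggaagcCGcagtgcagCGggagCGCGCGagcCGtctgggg
Tfpt, up to the start of Prpf31: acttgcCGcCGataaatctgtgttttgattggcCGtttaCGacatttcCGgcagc

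Calm2 held the highest-scoring peaks of the 3 genes in both lists. It spans chr17:87433401-87446935 (13535 bp), and was read as a minus strand gene because all 7 of its peaks carry that strand. The peak over the start of Calm2 scored 228 in HEPA1-6, where 144 of 28717 peaks scored higher, and 102 in the liver-labelled list, where 294 of 14908 did. The deposited score has no stated scale, so it is given as a rank within its own list, the percent of peaks below it with ties at the midpoint. These ranks were 99.5 and 98.0. The HEPA1-6 peak (chr17:87445770-87448345, 2576 bp) reached from 1410 bp before the start to 1165 bp into the gene. The liver-labelled peak (chr17:87445961-87448345, 2385 bp) ended at the same upstream base and lay within the HEPA1-6 peak. At least 1 identical edge was found in 46.1% of 11455 overlapping pairs of the lists.

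The other peaks of Calm2 lay inside the gene and toward its 3′ end. In HEPA1-6 an interval 2406 to 3882 bp from the start scored 30, one at 8205 to 10009 bp scored 62, and one from 11396 bp to 1010 bp past the gene's end scored 20, the last being just below the list median of 21. The liver-labelled list held shorter intervals inside the first and the second of these, of 262 bp (score 20) and 352 bp (score 46). It held none at the 3′ end. Thus 3 of the 4 HEPA1-6 peaks of Calm2 overlapped a liver-labelled peak, and all 3 liver-labelled peaks overlapped a HEPA1-6 peak on the same strand. With 1 kb added on both sides, HEPA1-6 peaks covered 55.3% of the gene and liver-labelled peaks 16.7%.

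Beside the 42.0% and 29.7% of protein-coding genes with at least 1 peak, 27.8% held one in both lists, as did Calm2 and Calm3. Among 7553 genes within 2-fold of Calm2 in length, 8.37% held 4 or more HEPA1-6 peaks, as Calm2 does, and 7.40% held 3 or more liver-labelled peaks. As large a covered share was found at 10.6% and 12.7% of these genes. Of the 45 other genes whose top HEPA1-6 score lay within 10% of that of Calm2, 100% held a liver-labelled peak. Around Calm2 the lists were otherwise sparse. The next HEPA1-6 peak lay 75361 bp and the next liver-labelled peak 150600 bp from the gene, both on the side of its 3′ end. Distances as long were found at 15.4% and 15.8% of genes with a peak in the respective list.

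**Figure D1:**
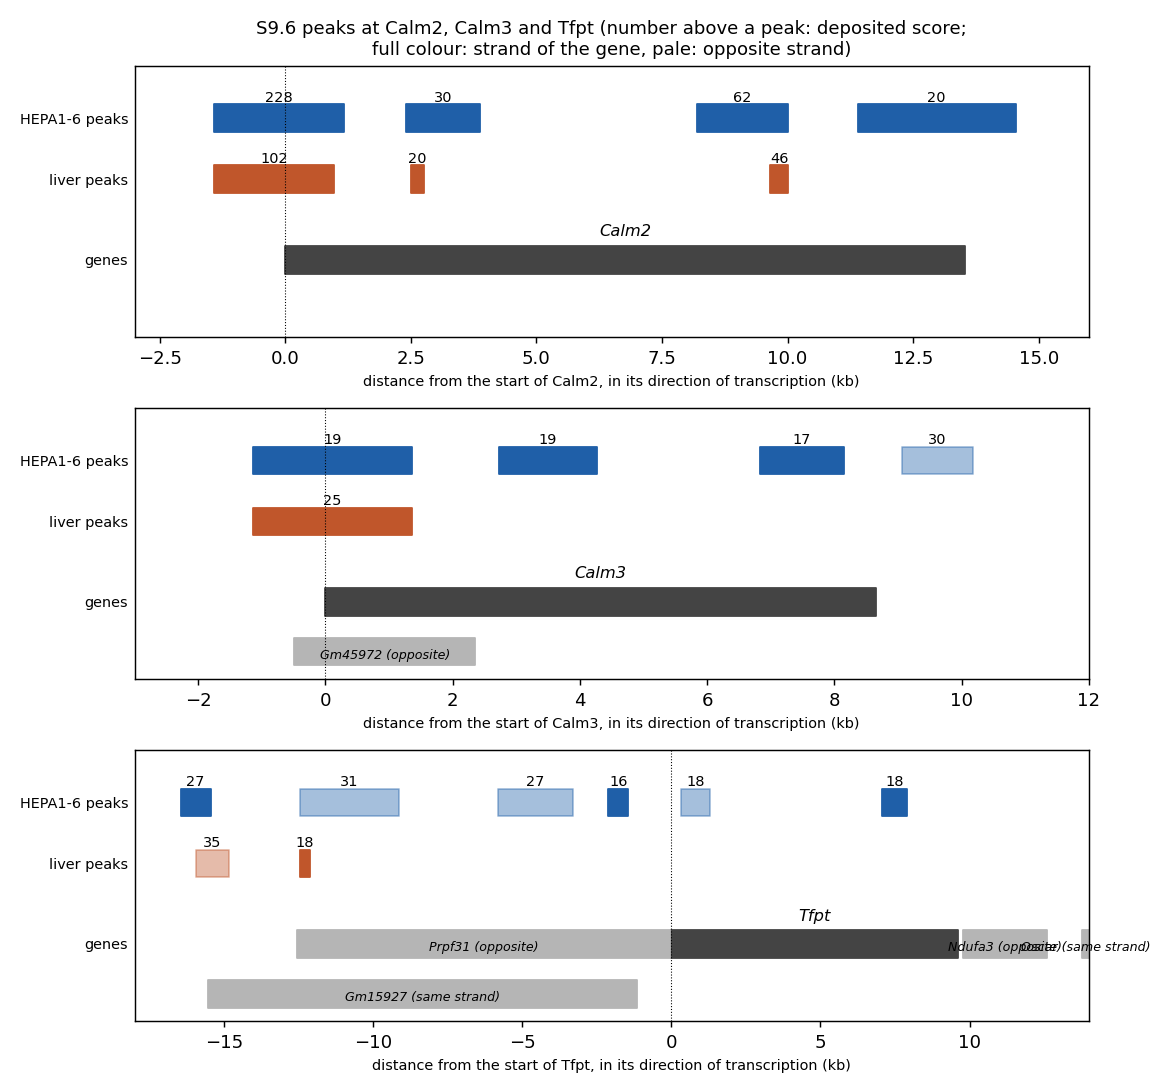
Peaks of the HEPA1-6 list (blue) and of the liver-labelled list (orange) at Calm2, Calm3 and Tfpt, by distance from each gene's start in kb along its direction of transcription, with the deposited score above each peak, the strand of the gene in full colour, the opposite strand in pale, and neighbouring genes in grey. Peaks span the start of Calm2 and of Calm3 in both lists, whereas the start of Tfpt lies in a gap between HEPA1-6 peaks and far from any liver-labelled peak.

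Calm3 also held 4 HEPA1-6 peaks, of which those over the gene had low scores, and a single liver-labelled peak. The gene spans chr7:16915379-16924032 (8654 bp). Its start lay under the same interval in both lists, chr7:16922666-16925173 (2508 bp), which reached from 1141 bp before the start to 1366 bp into the gene and carried the strand of Calm3. This interval scored 19 in HEPA1-6 (rank 43.7, below the list median) and 25 in the liver-labelled list (rank 61.2, above the median of 22). Both edges were identical, which was true of 6.29% of overlapping pairs. The interval also overlaps Gm45972, a long noncoding RNA gene on the opposite strand that shares 2360 bp with Calm3.

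The other HEPA1-6 peaks of Calm3 had no liver-labelled counterpart. Those at 2725 to 4267 bp and 6837 to 8146 bp from the start scored 19 and 17, on the strand of the gene. The highest score of the window, 30 (rank 73.7), belonged to a plus strand peak (chr7:16913855-16914976) that began 403 bp past the end of Calm3 and overlapped no gene of the table. Over the gene body alone, the highest rank was therefore 43.7. Ptgir, the prostacyclin receptor gene on the plus strand 4473 bp beyond the end of Calm3, held no peak within 1 kb in either list. The plus strand peak lies between both genes.

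HEPA1-6 peaks covered 54.6% of the Calm3 window and liver-labelled peaks 22.2%, close to the shares at Calm2 although the ranks were far lower. Among 6471 genes within 2-fold of Calm3 in length, 220 held 4 or more HEPA1-6 peaks (3.40%), and 31.8% held at least 1 liver-labelled peak. As large a covered share was found at 14.2% (HEPA1-6) and 13.3% (liver-labelled) of them. Of genes whose top HEPA1-6 score was within 10% of that of Calm3, 63.2% held a liver-labelled peak. With top HEPA1-6 scores taken over the gene body alone, where that of Calm3 is 19, this share was 30.7%. Liver-labelled peaks were counted with the 1 kb flanks in both cases. Outside the window, the next peak lay 50219 bp away (HEPA1-6) or 38840 bp away in the liver-labelled list, distances reached by 21.3% and 38.7% of genes with a peak. With the higher-scoring 50% of peaks, Calm3 held 1 HEPA1-6 peak in place of 4, the one on the plus strand beyond the gene.

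Tfpt held 2 low-scoring HEPA1-6 peaks and no liver-labelled peak. The gene spans chr7:3620324-3629929 (9606 bp). A peak of 848 bp (chr7:3622022-3622869) lay toward its 3′ end, 7060 to 7907 bp from the start, on the strand of the gene. A peak of 993 bp (chr7:3628625-3629617) lay 312 to 1304 bp from the start and carried the plus strand, opposite to Tfpt and the same as Prpf31, although it overlaps Tfpt alone. Of 17536 HEPA1-6 peaks over a single gene of known strand, 6.59% carried the opposite strand. Both peaks scored 18 (rank 38.8), a score shared by 1503 peaks of the list. Neither was among the higher-scoring 50% of the list.

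These peaks covered 15.9% of the Tfpt window. Among 6734 genes within 2-fold of Tfpt in length, 46.3% held at least 1 HEPA1-6 peak, 27.2% held at least 2, 32.2% had as large a covered share, and 32.1% held a liver-labelled peak. Of 9191 genes with a HEPA1-6 peak, 33.9% held no liver-labelled peak, as was the case for Tfpt. Among the 671 other genes with a top HEPA1-6 score within 10% of that of Tfpt, 25.3% held one. The nearest liver-labelled peak began 12103 bp from the start of Tfpt, at the far end of Prpf31 (chr7:3642032-3642395, score 18).

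Around Tfpt, further HEPA1-6 peaks lay over its neighbour. The next one began 1449 bp before the start, and 95.3% of genes with a peak had their next peak at least that far away. Only peaks wholly outside the 1 kb flanks were counted here, so every such distance exceeds 1 kb by construction. Prpf31 held 4 HEPA1-6 peaks within 1 kb of its body, the highest scoring 31, and 1 liver-labelled peak. One of these 4 is the plus strand peak within Tfpt. Gm15927, a long noncoding RNA gene that overlaps Prpf31, held 4 and 2 peaks, with top scores of 31 and 35. Ndufa3, a gene for a respiratory chain subunit 158 bp beyond the 3′ end of Tfpt, and Oscar, an immune receptor gene, held none in either list.

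The shared start of Tfpt and Prpf31 had no peak in either list. The HEPA1-6 peak nearest to the promoter window of Tfpt ended 263 bp short of it. Among 577 head-to-head pairs of protein-coding genes with starts within 1 kb of each other, 40.0% had a HEPA1-6 peak between the starts or within 250 bp of them, and 30.0% a liver-labelled one. Among 349 pairs with a HEPA1-6 peak at both genes, as here, the share was 66.2%. The same 231 pairs make up both HEPA1-6 shares, since a peak that near the starts falls within 1 kb of both genes. The higher share is therefore built into the choice of pairs and does not make the start of Tfpt more unusual. Of 17492 protein-coding genes with promoter windows, 20.4% had a HEPA1-6 peak on at least 1 of their windows and 13.5% a liver-labelled peak. Both were found at 12.1% of genes, as at Calm3, though not always on the same window.

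**Figure D2:**
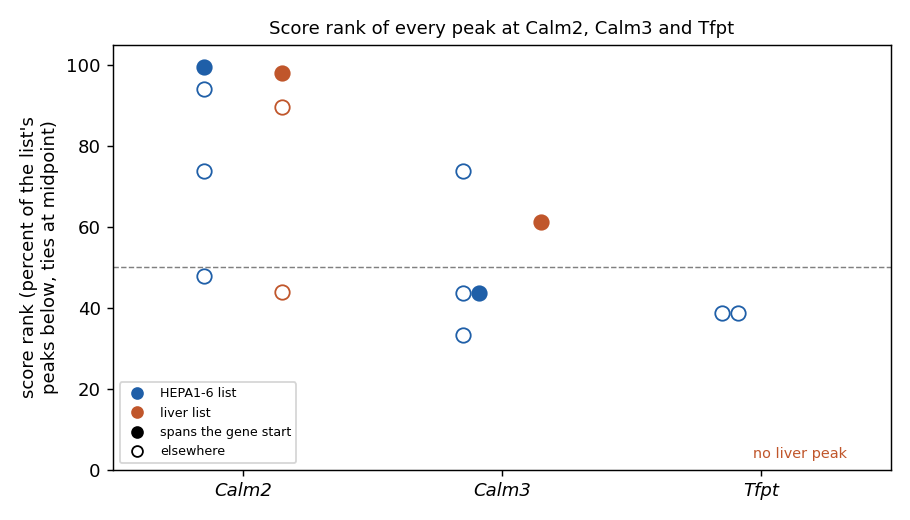
Score rank, as the percent of the list's peaks below, of every peak at Calm2, Calm3 and Tfpt in the HEPA1-6 (blue) and liver-labelled (orange) lists, with filled points for peaks that span the gene start and a dashed line at the middle of the list. The Calm2 start peaks stand at 99.5 and 98.0, the Calm3 start peaks at 43.7 and 61.2, and both Tfpt peaks at 38.8.

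By their highest peaks, the order was thus Calm2, Calm3, Tfpt in HEPA1-6, and Calm2 before Calm3 in the liver-labelled list, where Tfpt had none. In HEPA1-6 the highest peak of Calm3 is the plus strand peak beyond its end. Over the gene bodies, Calm3 and Tfpt were nearly level, with top scores of 19 and 18. Replicate lists that would give a spread for this order were not used here. Calm2 and Calm3 had a peak over the start in both lists. Calm4, Calm5, Calml3 and Calml4, genes for calmodulin-like proteins, held no peak in either.

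The base composition of the starts differed between Calm3 and Tfpt. GC skew is the excess of G over C on the gene's strand, divided by their sum, and a transcript is known to stay bound more easily where its DNA template is rich in C. Of each 300 bp window, 250 bases lie before the start and are no template for the gene's own transcript, and the skew further into the genes was not computed. The 300 bp window of Calm3 held 72.0% G and C, a GC skew of 0.21 and 44 CG dinucleotides, at percentiles 93.3, 91.1 and 97.9 of 32851 RefSeq windows. The window of Tfpt held 48.0% G and C, a skew of -0.22 and 22 CG dinucleotides, at percentiles 32.6, 5.59 and 77.7. The overlapping window of Prpf31, read on the other strand, had a skew of -0.13 (percentile 16.6), so that C exceeded G in the direction of both genes. These are descriptions of 2 windows, and their part in the presence of a peak was not tested.

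**Figure D3:**
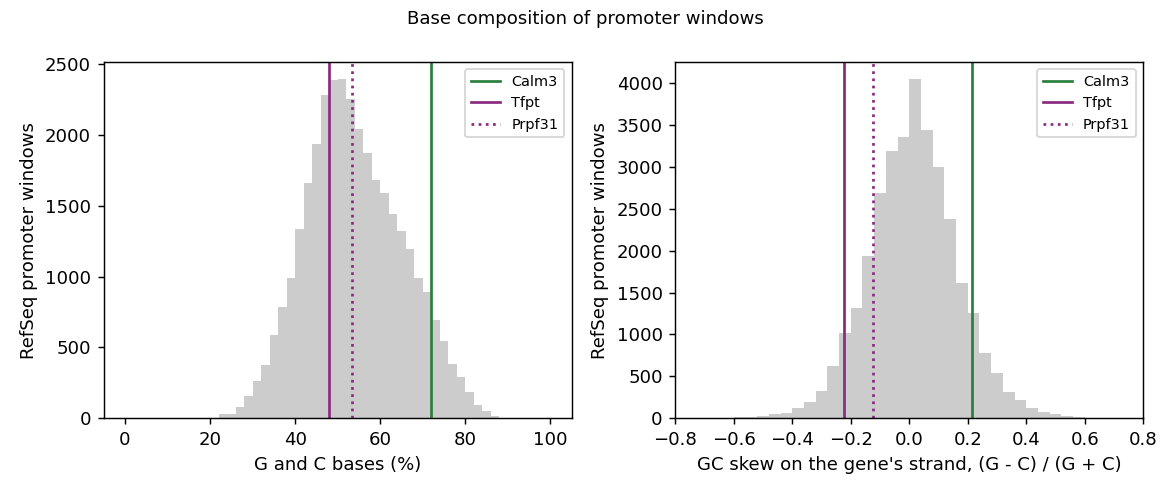
Number of RefSeq promoter windows of 300 bp by G and C content in percent (left) and by GC skew on the gene's strand (right), with lines for Calm3 (green), Tfpt (purple) and Prpf31 (dotted). Calm3 lies to the right of most windows in both panels, with 72.0% and a skew of 0.21, and Tfpt lies far to the left in skew, at -0.22.

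Short motifs were searched on both strands of the 300 bp windows, with overlapping matches counted. GGGCGG, the letters of a GC box, occurred once in the window of Calm3 and not in that of Tfpt, and in 35.7% of all windows. GGGG occurred 6 times on the sense strand and once on the antisense strand of Calm3, against 0 and 1 for Tfpt, and in 86.4% of windows. CCAAT occurred once, on the antisense strand of Tfpt between both starts, and in 37.4% of windows. TGACG occurred once in each gene and in 20.8% of windows. TATAAA was found once, on the antisense strand of the Tfpt window, and in 13.6% of windows. A match is no evidence of binding.

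The other subunits of INO80 were compared with Tfpt. Of 15 further subunit genes, 15 held a HEPA1-6 peak (100%, Wilson interval 79.6 to 100%, against 42.0% of all protein-coding genes) and 13 a liver-labelled peak (86.7%, 62.1 to 96.3%, against 29.7%). Over protein-coding genes between the lower and upper quartile of the list's gene lengths, the shares were 49.6% and 33.4%. The median top score of the 15 genes was 52 in HEPA1-6, against 34 over all genes with a peak, and 30 in the liver-labelled list, against 28. A peak touched a promoter window at 8 (HEPA1-6) and 5 (liver-labelled) of the 10 subunit genes that had one in the table, against 20.4% and 13.5% of all protein-coding genes with such a window.

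Tfpt ranked 15th of the 16 subunit genes by top HEPA1-6 score. Actb, the beta-actin gene whose product is a subunit as well, led with scores of 513 and 281, which are ranks 99.8 and 99.4. Next came Ino80e (136 and 60) and Yy1 (74 and 69), the latter a DNA-binding factor. Mcrs1, Actr5, Ruvbl1, Ino80d, Ruvbl2 and Ino80b had top HEPA1-6 scores from 45 to 60, and Actr8, Uchl5, Ino80c and Actl6a from 26 to 34. Ruvbl2, a gene for one of the paired AAA+ ATPases of the complex, stood higher in the liver-labelled list (score 91, rank 97.5) than in HEPA1-6 (score 52, rank 91.3). Only Nfrkb, with a score of 12, lay below Tfpt. The 3 subunit genes without a liver-labelled peak, Tfpt, Nfrkb and Ino80, the last coding for the ATPase of the complex, were also the 3 lowest in HEPA1-6. Most genes with so low a score lack one: of other genes within 10% of the top HEPA1-6 score of Tfpt, 25.3% held a liver-labelled peak.

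**Figure D4:**
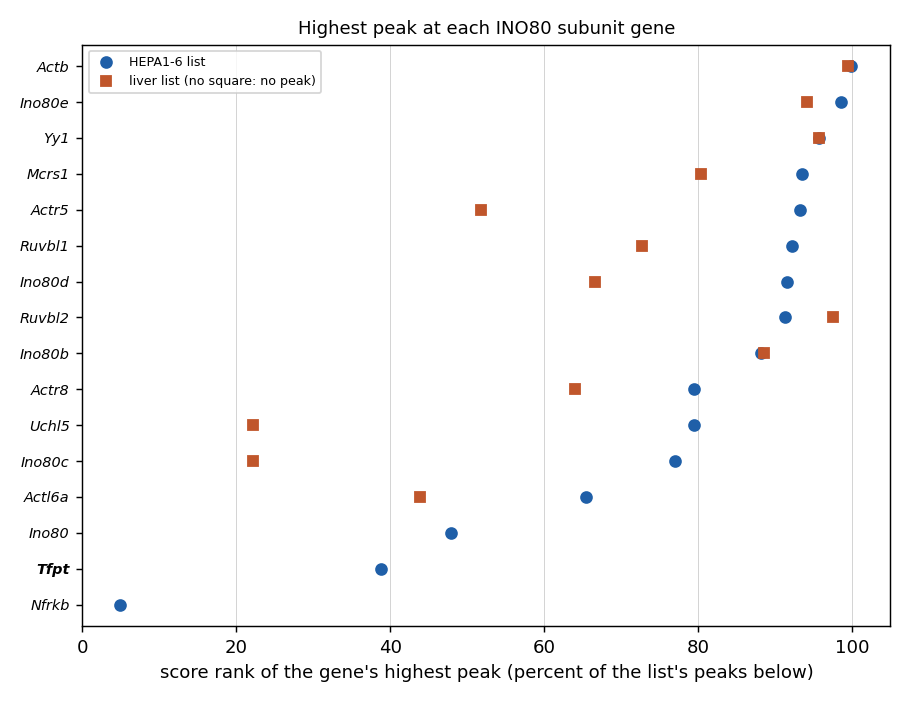
Score rank of the highest peak, as the percent of the list's peaks below, at each of 16 INO80 subunit genes in the HEPA1-6 list (blue circles) and the liver-labelled list (orange squares), ordered by HEPA1-6 score. Tfpt (bold) stands at 38.8 in HEPA1-6, above Nfrkb only, and the 3 lowest genes have no liver-labelled peak.

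Partners of calmodulin held peaks at shares near those of all genes. Of 63 listed genes, which include the calmodulin-like genes, 28 held a HEPA1-6 peak (44.4%, 32.8 to 56.7%) and 19 a liver-labelled peak (30.2%, 20.2 to 42.4%), against 42.0% and 29.7% of all protein-coding genes. Both lists had a peak at 17 of them, HEPA1-6 alone at 11 and the liver-labelled list alone at 2, Phka1 and Pde1c. Between the quartiles of the list's gene lengths, the shares over all genes were 50.7% and 34.5%. The median top scores, 27 and 25, were below those over all genes with a peak, 34 and 28.

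Of 21 kinase genes under calmodulin control, HEPA1-6 had a peak at 12 and the liver-labelled list at 7. Camk1d had the highest scores, 1923 and 922 (ranks 99.9 and 99.8), from 1 narrow interval in each list that covered 0.0775% and 0.0732% of the window of this 421404 bp gene. Camk2b (60 and 48) and Camk2d (36 and 17) followed among genes with a peak in both lists. For calcineurin, the phosphatase that calmodulin activates, and its regulators, the HEPA1-6 list had a peak at 3 of 8 genes and the liver-labelled list at 2. These 2 were the catalytic subunit genes Ppp3ca (125 and 69) and Ppp3cb (101 and 60), while no regulator of the Rcan family held one.

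Among 19 genes for other enzymes, pumps and channels, each list had a peak at 6, and 5 genes had one in both. Of these 5, the calcium pump gene Atp2b1 (33 and 39), Itpkc (30 and 14) and the adenylate cyclase gene Adcy1 (27 and 27) had the highest HEPA1-6 scores. None of the nitric oxide synthase genes Nos1, Nos2 and Nos3 held a peak. Among 11 other binding proteins the counts were 7 and 4. Marcks, coding for a membrane protein that binds calmodulin, scored 54 and 30 and was covered over 57.4% and 43.7% of its window. Iqgap1 scored 42 and 22, and Camta2 41 and 27.

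**Figure D5:**
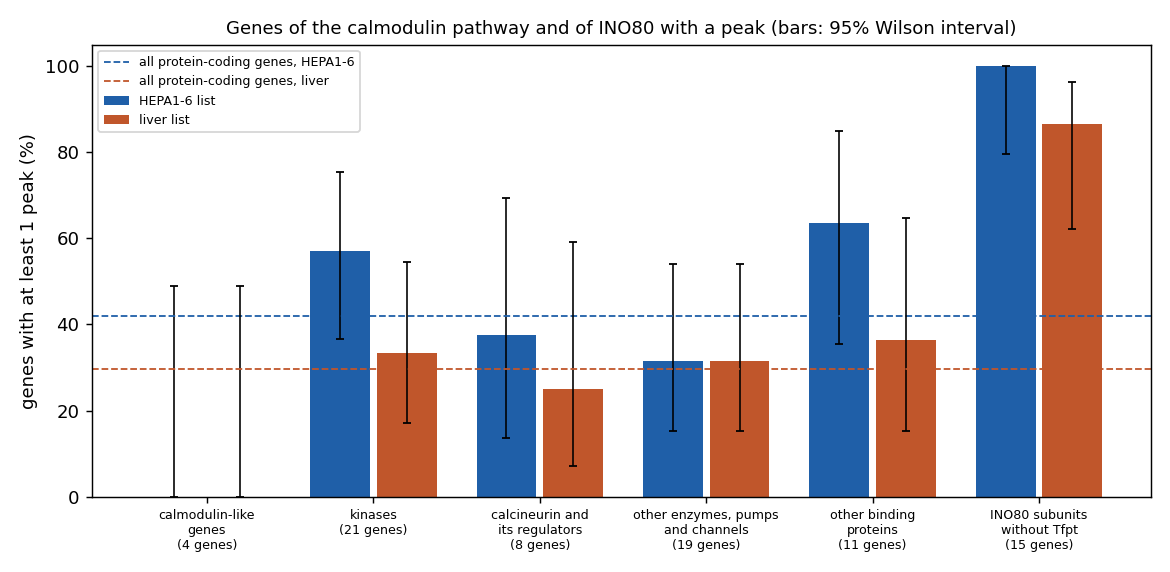
Percent of genes with at least 1 peak in the HEPA1-6 list (blue) and the liver-labelled list (orange) for 5 groups of calmodulin-like genes and calmodulin partners and for INO80 subunits without Tfpt, with 95% Wilson intervals and dashed lines for all protein-coding genes (42.0% and 29.7%). Of the groups shown, only the INO80 intervals lie wholly above the lines. Those of the 12 cell cycle genes, not drawn here, do so as well (64.6 to 98.5% and 46.8 to 91.1%).

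The genes most like each member were sought over 4 values in the 2 lists: the covered share of the window and the rank of the highest peak, in each list. Nearest to Calm2 were Map3k1, Rbm12 and Cops6, at distances of 3.24 to 4.91 percentage points. Map3k1 had ranks of 99.3 and 96.6, with 55.9% and 19.5% covered. Nearest to Calm3 were Cc2d1b, Cox8a and Tfap4, at 5.26 to 6.59 points. Nearest to Tfpt were Chadl, Tm4sf20 and Dnaja3, at 0.0824 to 1.33 points, each with a top score of 18 in HEPA1-6 and no liver-labelled peak. These shared values are what the genes were chosen by, and are no separate result. Where a list had no peak, its values were set to 0, so the distances cannot be compared between members.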

How the data were processed

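The analysis started from the 2 deposited peak lists. The authors' score is an integer, at least 10, with no scale stated in the lists or labels. Per the submitters' processing notes, the build was mm10 and the tools included CASAVA 1.8.2, cutadapt, Bowtie2, SAMtools, bedtools and MACS2, with no role or threshold given. How a strand was given to a peak is not given in the sources used here. Genes came from RefSeq (GRCm38.p6), as boundaries without exons. Peaks were assigned to a gene by an overlap of at least 1 bp with its body extended by 1 kb either way. Gene strands came from the RefSeq promoter table, or from the peaks for Calm2. Wilson intervals cover counting error only. For covered shares each base was counted as a separate draw, although bases under 1 peak go together. Those intervals, used below to compare settings, are therefore too narrow. Functions were tested on simulated data. Python 3.11.15, numpy 2.4.6 and scipy 1.17.1 were used.

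The members and lists were chosen with earlier results of these data known. The rule for named genes took the members, genes within 5 kb of them, all INO80 subunits, up to 3 genes per calmodulin list with a peak in both lists and the highest HEPA1-6 scores, and 3 nearest genes per member. Any other gene was named with its values known. One gene planned for the calmodulin list is not reported here.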

Additional observations from a re-analysis of the deposited data

How the results depend on the processing

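Of 87 alternatives for 28 values, 63 lay inside the Wilson interval or within 1.5 times the count reported, and 24 did not. Only the GC skews of Calm3 and Tfpt could change sign, and neither did. With the higher-scoring 50% of peaks, HEPA1-6 counts were 1 at Calm3 and 0 at Tfpt; with equal numbers of peaks the HEPA1-6 counts were again 1 and 0. These settings leave out low-scoring peaks by construction. Requiring an overlap of 50% of both peaks left 1 shared HEPA1-6 peak at Calm2. Top ranks for Calm2 in HEPA1-6 and the liver-labelled list were 99.61 and 98.41 among peaks over a gene, and 99.58 and 98.35 among peaks with a strand. For Calm3 in the liver-labelled list they were 59.7 and 60.05. With ties counted as not below, ranks were 72.8 and 59.8 for Calm3 and 36.2 for Tfpt. Over the gene body only, an alternative chosen after seeing the data, the HEPA1-6 rank of Calm3 was 43.7. Without flanks, covered shares were 48.7% and 11.7% (Calm2), 48.8% and 15.8% (Calm3) and 19.2% (Tfpt, HEPA1-6). With 2 kb they were 51.4% (Calm2, HEPA1-6), 51.2% and 19.8% (Calm3) and 17.6% (Tfpt). No paired analysis was possible because 1 list per source was used here and values of single libraries were not analysed, so no replicate was left out either. The unknown depth limits each missing peak.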

Other observations

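Ptgir, the neighbour of Calm3, had a promoter window with a GC skew of 0.49, at percentile 99.7 of all windows, and no peak in either list within 1 kb of the gene. It was singled out with its values known. Among the cell type markers, Dcn, a gene of fibroblasts and stellate cells, was the only gene of the other liver cells with a peak, at top scores of 112 (HEPA1-6) and 67 (liver-labelled).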
